A study of Mus musculus with 10 samples.

Results

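The proteasome subunit genes were taken from the 22046 genes of the deposited tables as those whose symbol is Psm, a letter from a to g and a number, without Psmb8 and Psmb9, and whose mean read count reached 20. The mean read count is the authors' value per gene over the 8 libraries. Of 46 genes with such a symbol, 44 met the rule. The member just inside it was Psme2, with a mean read count of 170.5. Just outside were Psma8, a core subunit of male germ cells, with 11.3, and Psmb11, the core subunit of the thymus, with 0. Psme2 had 3.42 and 3.00 RPKM (read counts divided by a length and by library depth) in knockout total RNA, against 3.43 and 2.90 in wild-type total RNA, and 4.89 and 2.77 RPKM in knockout footprints, against 2.34 and 4.27 in wild-type footprints. Psma8 had 2.25 and 1.62 RPKM in knockout total RNA, against 1.67 and 2.50 in wild-type total RNA, and 5.29 and 6.21 RPKM in knockout footprints, against 1.74 and 8.87 in wild-type footprints.

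The study profiled cerebellum of Bmal1-/- mice (knockout) and their Bmal1+/+ littermates (wild type), bred from Bmal1+/- parents on a C57BL/6 background and kept under a cycle of 12 h light and 12 h dark. Bmal1, listed as Arntl, encodes a transcription factor of the circadian clock, and it is missing from the germline and so from every cell type. Each lysate, made with cycloheximide to hold ribosomes in place, gave ribosome footprints of 28 to 34 nt and a total RNA library, both depleted of ribosomal RNA. The tables hold knockouts 1 and 3 and wild types 2 and 3, so that each comparison of genotypes is 2 against 2. The total RNA libraries of knockout 2 and wild type 1 were not analysed here. The labels give neither age, sex nor time of day, and they do not say that each number is a separate animal, as is assumed here. P-values therefore measure only the spread between these samples.

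The 26S proteasome degrades proteins tagged with ubiquitin. Its 20S core is a barrel of alpha rings, which gate the entry, around beta rings, which hold the proteolytic sites. The 19S regulatory particle caps the barrel: its non-ATPase subunits bind ubiquitin chains and cut them off, and its ring of ATPases unfolds the protein and feeds it into the core. Dedicated chaperones assemble each particle, other activators and an inhibitor can bind the barrel, and the transcription factor NRF1 (Nfe2l1) is known to raise many subunit genes together when proteasome activity falls short.

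By role the 44 genes were 7 of the alpha ring, 7 of the beta ring, Psmb10 of the immunoproteasome, 6 ATPases and 11 non-ATPase subunits of the 19S particle, 3 chaperones of that particle, 5 activators and inhibitor, and 4 chaperones of the core. All 44 passed the filter on low values, a mean of at least 1 RPKM, in every comparison. Recovered reads per library numbered 41.0 M and 30.1 M in knockout footprints against 38.1 M and 27.7 M in wild-type footprints. In total RNA they numbered 38.9 M and 43.2 M in the knockouts against 25.6 M and 27.8 M in the wild types, so that in total RNA depth and genotype cannot be told apart. Arntl had 124 and 107 RPKM in knockout footprints against 258 and 295 in wild-type footprints, and 267 and 272 RPKM in knockout total RNA against 179 and 179 in wild-type total RNA. The labels do not name the deleted exons, so total RNA does not check the genotype.

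Ribosome footprints of proteasome genes were dense for the amount of their RNA. Translational efficiency (TE) is the authors' ratio of footprint RPKM to total RNA RPKM in the same animal. Its median over the 44 proteasome genes was 2.13 and 1.82 in the knockouts and 1.83 and 1.82 in the wild types. Over the 11676 genes whose mean read count reached 100 the median was 0.925 and 0.949 in the knockouts and 0.955 and 0.953 in the wild types. In every animal, 39 of the 44 genes lay above the median of all genes, as did 39.9% of all genes, and 10 lay above the 90th percentile, as did 5.51% of all genes. Footprints were tested against total RNA in limma with the animal as a block, on log2(RPKM + 1), and a gene is called where the Benjamini-Hochberg adjusted p over all genes is under 0.05. Of the 44 genes, 37 were called higher in footprints, against 33.8% of all 12089 genes tested, and 1, Psme4, was called lower, against 39.5% of all genes. Called in either direction were thus 73.3% of all genes. The median log2 difference of footprints minus total RNA was 0.79 over the proteasome genes and -0.067 over all genes tested. Both kinds of library are scaled to their own depth, so these differences are relative to other genes and not absolute amounts of translation. The 44 genes also differ from all genes in transcript make-up. Their coding sequence was a median 69.75% of the transcript against 52.81%, and 819 nt long against 1452 nt. Mean TE had a Spearman rho with that coding share of 0.205 over all genes (n = 11666) and of -0.0035 over the 44 genes. The part of these features in the TE of proteasome genes was not tested.

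**Figure D1:**
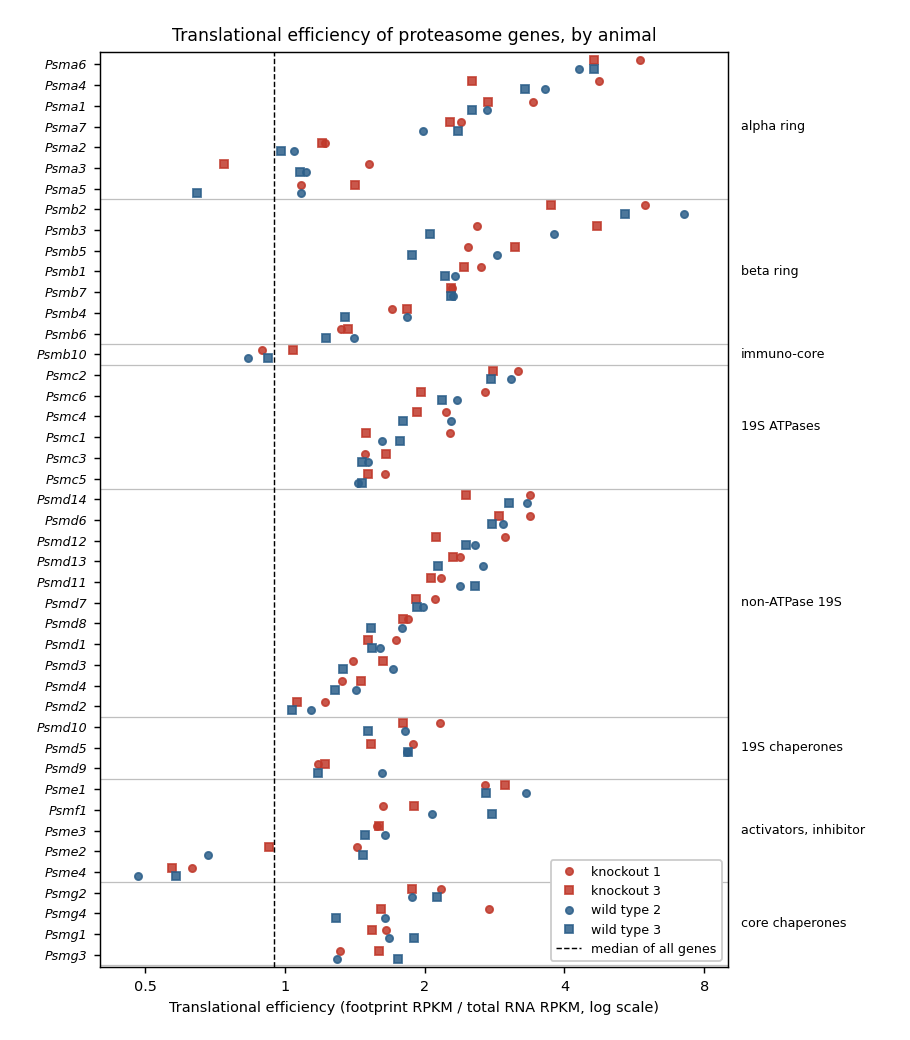
Translational efficiency of the 44 proteasome genes by role, on a log scale, with 1 point for each animal: red for the knockouts, blue for the wild types, and the dashed line at the median of all genes. In 39 genes all 4 animals lie right of the line, Psmb2 and Psma6 lie farthest right, Psme4 lies left of it, and red and blue points are mixed.

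Among the 7 alpha-ring genes, 4 were called higher in footprints. Psma6 (ENSMUSG00000021024; mm10 chromosome 12, 55384222 to 55418454) had footprints of 135.1 and 113.6 RPKM in the knockouts and 120.0 and 120.1 RPKM in the wild types. Its total RNA was 23.2 and 24.6 RPKM in the knockouts and 28.0 and 25.9 RPKM in the wild types. Its TE was therefore 5.82 and 4.63 in the knockouts and 4.29 and 4.64 in the wild types, which placed it between percentile 99.2 and percentile 99.85 of all genes. The log2 difference of footprints minus total RNA was 2.22 (SE 0.094, limma adjusted p = 2.36e-06), and footprints exceeded total RNA in 4 of 4 animals. Psma4, whose yeast counterpart closes the gate of the core, had a TE of 4.75 and 2.53 in the knockouts and 3.63 and 3.29 in the wild types. Psma1 had 3.41 and 2.74 in the knockouts and 2.72 and 2.52 in the wild types. Psma7 had 2.40 and 2.26 in the knockouts and 1.98 and 2.36 in the wild types. In each of these 4 called genes every animal lay well above the median of all genes.

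The other alpha-ring genes lay near the median of all genes. Psma2 had a TE of 1.22 and 1.20 in the knockouts and 1.05 and 0.982 in the wild types (limma adjusted p = 0.208 for footprints against total RNA). Psma3 had 1.52 and 0.738 in the knockouts and 1.11 and 1.08 in the wild types (limma adjusted p = 0.595). Psma5 had 1.08 and 1.41 in the knockouts and 1.08 and 0.648 in the wild types (limma adjusted p = 0.894), the lowest mean TE of the core, at 1.06 ± 0.315 (SD, n = 4 animals). In Psma5 footprints were 2.49 and 3.68 RPKM in the knockouts and 2.73 and 2.00 RPKM in the wild types, and total RNA was 2.29 and 2.60 RPKM in the knockouts and 2.52 and 3.09 RPKM in the wild types. In Psma3 the knockouts lay on either side of both wild types, and in Psma5 knockout 3 was the highest and wild type 3 the lowest animal.

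All 7 beta-ring genes were called higher in footprints, the proteolytic subunits Psmb5, Psmb6 and Psmb7 among them. Psmb2 (ENSMUSG00000028837; chromosome 4, 126677630 to 126709714) had footprints of 28.6 and 21.3 RPKM in the knockouts and 30.8 and 29.6 RPKM in the wild types. Its total RNA was 4.78 and 5.68 RPKM in the knockouts and 4.27 and 5.47 RPKM in the wild types. The TE of Psmb2 was 5.97 and 3.74 in the knockouts and 7.22 and 5.41 in the wild types, the highest mean of all 44 genes at 5.59 ± 1.44 (SD, n = 4 animals), with a log2 difference of 2.23 (SE 0.145, limma adjusted p = 1.03e-05). Psmb7, with the trypsin-like site, was the steadiest gene of the set: its TE was 2.29 and 2.28 in the knockouts and 2.30 and 2.28 in the wild types. Psmb7 footprints were 10.2 and 10.8 RPKM in the knockouts and 9.96 and 11.3 RPKM in the wild types, on total RNA of 4.48 and 4.72 RPKM in the knockouts and 4.32 and 4.96 RPKM in the wild types.

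Psmb6, with the caspase-like site, had a TE of 1.32 and 1.37 in the knockouts and 1.41 and 1.23 in the wild types, lowest among the beta-ring genes. Its footprints were 49.1 and 51.0 RPKM in the knockouts and 52.0 and 57.5 RPKM in the wild types, and its total RNA was 37.2 and 37.3 RPKM in the knockouts and 36.9 and 46.8 RPKM in the wild types. Psmb5, with the chymotrypsin-like site, had a TE of 2.48 and 3.13 in the knockouts and 2.86 and 1.88 in the wild types. The proteolytic subunits thus ranged from 1.33 to 2.59 in mean TE. Psmb1 had 2.64 and 2.43 in the knockouts and 2.33 and 2.21 in the wild types. Psmb3 had 2.60 and 4.70 in the knockouts and 3.80 and 2.05 in the wild types. Psmb4 had 1.70 and 1.83 in the knockouts and 1.84 and 1.35 in the wild types. Knockout 3 and wild type 2 were the high animals in Psmb3, and in Psmb4 wild type 3 was the low one. Psmb10, which replaces Psmb7 in the immunoproteasome, stood apart from the ring with 0.891 and 1.04 in the knockouts and 0.831 and 0.919 in the wild types, close to the median of all genes (limma adjusted p = 0.240 for footprints against total RNA).

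Of the 17 subunits of the 19S particle, 16 were called higher in footprints, including 6 of 6 ATPases. Psmc2 had a TE of 3.17 and 2.81 in the knockouts and 3.07 and 2.78 in the wild types. Psmc6 had 2.69 and 1.96 in the knockouts and 2.35 and 2.18 in the wild types. Psmc4 had 2.22 and 1.93 in the knockouts and 2.28 and 1.80 in the wild types. These 3 ATPases had a higher mean TE than the other 3. Psmc1 had 2.27 and 1.49 in the knockouts and 1.62 and 1.77 in the wild types. Psmc3 had 1.49 and 1.65 in the knockouts and 1.51 and 1.47 in the wild types. Psmc5 had 1.64 and 1.51 in the knockouts and 1.43 and 1.47 in the wild types. The 6 genes, whose products form a single ring, thus covered mean TE of 1.51 to 2.96.

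Psmd14 (ENSMUSG00000026914; chromosome 2, 61711694 to 61800376), the deubiquitinase of the particle, had the highest mean TE of the 19S genes, 3.05 ± 0.421 (SD, n = 4 animals). Its TE was 3.37 and 2.46 in the knockouts and 3.32 and 3.04 in the wild types, with a log2 difference of footprints minus total RNA of 1.56 (SE 0.099, limma adjusted p = 9.38e-06). Psmd7, its catalytically inactive partner, had 2.11 and 1.91 in the knockouts and 1.99 and 1.93 in the wild types. Psmd6 had 3.38 and 2.90 in the knockouts and 2.95 and 2.79 in the wild types. These 3 belong to the lid of the particle, and all 8 lid genes were above the median of all genes in every animal. Psmd12 had 2.98 and 2.11 in the knockouts and 2.57 and 2.45 in the wild types. Psmd13 had 2.38 and 2.30 in the knockouts and 2.66 and 2.14 in the wild types. Psmd11 had 2.17 and 2.06 in the knockouts and 2.38 and 2.57 in the wild types. Psmd8 and Psmd3, also lid subunits, were lower than these 3. Psmd8 had 1.84 and 1.79 in the knockouts and 1.78 and 1.54 in the wild types. Psmd3 had 1.40 and 1.63 in the knockouts and 1.71 and 1.34 in the wild types.

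The ubiquitin receptor and the scaffolds of the base included the lowest values of the 19S particle. Psmd4, a ubiquitin receptor, had a TE of 1.33 and 1.46 in the knockouts and 1.43 and 1.28 in the wild types. Psmd1, a large scaffold, had 1.74 and 1.51 in the knockouts and 1.61 and 1.54 in the wild types. Psmd2, the other large scaffold, had 1.22 and 1.06 in the knockouts and 1.14 and 1.03 in the wild types. Psmd2 had the lowest mean TE of the 19S genes, 1.11 ± 0.083 (SD, n = 4 animals), and was the only one of them not called (limma adjusted p = 0.0915). Its footprints were 226.7 and 228.0 RPKM in the knockouts and 249.1 and 245.9 RPKM in the wild types, and its total RNA was 186.0 and 214.6 RPKM in the knockouts and 218.3 and 237.8 RPKM in the wild types.

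The factors that assemble the particles were also called higher in footprints, 3 of 3 for the 19S particle and 4 of 4 for the core. Psmd10 had a TE of 2.16 and 1.80 in the knockouts and 1.82 and 1.51 in the wild types. Psmd5 had 1.89 and 1.53 in the knockouts and 1.83 and 1.84 in the wild types. Psmd9 had 1.18 and 1.22 in the knockouts and 1.62 and 1.18 in the wild types. These chaperones each bind an ATPase before the particle is complete. Psmg1 had 1.65 and 1.54 in the knockouts and 1.67 and 1.90 in the wild types. Psmg2, the partner of Psmg1, had 2.17 and 1.88 in the knockouts and 1.88 and 2.13 in the wild types. Psmg3 had 1.31 and 1.60 in the knockouts and 1.30 and 1.75 in the wild types. Psmg4, the partner of Psmg3, had 2.75 and 1.61 in the knockouts and 1.65 and 1.29 in the wild types, where knockout 1 stood above the other 3 animals.

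The activators and the inhibitor were the most mixed class, with 3 called higher and 1 called lower. Psme4 (ENSMUSG00000040850; chromosome 11, 30771726 to 30880361), which encodes a large single-chain activator of the nucleus, had footprints of 257.2 and 261.7 RPKM in the knockouts and 239.8 and 301.1 RPKM in the wild types. Its total RNA was 407.0 and 457.5 RPKM in the knockouts and 497.3 and 517.0 RPKM in the wild types. Its TE of 0.632 and 0.572 in the knockouts and 0.482 and 0.582 in the wild types was below the median of all genes in 4 of 4 animals, with a log2 difference of -0.82 (SE 0.080, limma adjusted p = 7.02e-05). Psme1, of the activator ring that interferon induces, had 2.70 and 2.98 in the knockouts and 3.30 and 2.72 in the wild types. Its ring partner Psme2 had 1.43 and 0.923 in the knockouts and 0.682 and 1.47 in the wild types and was not called (limma adjusted p = 0.649). Psme3, of the nuclear activator ring, had 1.58 and 1.59 in the knockouts and 1.64 and 1.49 in the wild types. Psmf1, the inhibitor, had 1.63 and 1.90 in the knockouts and 2.08 and 2.79 in the wild types, where both knockouts lay below both wild types.

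The core had a higher median TE than the 19S particle in each animal, by a small margin. The median over the 14 core subunits was 2.44 and 2.35 in the knockouts and 2.32 and 2.13 in the wild types, against a median over the 17 subunits of the 19S particle of 2.17 and 1.91 in the knockouts and 1.99 and 1.80 in the wild types. As a log2 difference, core minus 19S was 0.17 and 0.30 in the knockouts and 0.22 and 0.24 in the wild types, on average 0.23 ± 0.053 (SD, n = 4 animals), or 1.18-fold. The difference was above 0 in 4 of 4 animals. No p is given for it, since the genes were chosen with earlier results of these data known, and an exact sign-flip test over 4 animals cannot go below 0.125 (two-sided). Within the core the median was 2.40 and 2.26 in the knockouts and 1.98 and 2.36 in the wild types for the alpha ring, and 2.48 and 2.43 in the knockouts and 2.33 and 2.05 in the wild types for the beta ring, with neither ring higher in all animals. Among 19S genes the ATPases had 2.25 and 1.79 in the knockouts and 1.92 and 1.78 in the wild types, and the non-ATPase subunits 2.11 and 1.91 in the knockouts and 1.99 and 1.93 in the wild types. The range of single genes in the 19S particle (mean TE 1.11 to 3.05) lies inside that of the core (1.06 to 5.59). In mean TE 4 of the 14 core genes, Psmb3, Psma4, Psma6 and Psmb2, exceeded every 19S gene. Psma6 and Psmb2 did so in each animal. Psmb3 lay below the 19S gene Psmd6 in knockout 1 and wild type 3, and Psma4 in knockout 3. Coding sequences were shorter in the core (median 744 nt) than in the 19S particle (1257 nt) and made up less of the transcript (median 69.0% against 80.0%). Over the 44 genes the mean TE had a Spearman rho of -0.073 with coding length and of -0.0035 with the coding share of the transcript (n = 44 genes that share the same 8 libraries). Over all genes those values were -0.12 and 0.20 (n = 11666). The order of the 44 genes by TE was alike in all animals, with rho between 0.85 and 0.96 for pairs of animals.

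A footprint of a proteasome gene can also match one of its copies elsewhere in the genome, since many subunit genes have processed pseudogenes, inserted copies of a spliced mRNA. Each coding sequence (GENCODE M21 annotation, build mm10) was therefore compared in windows of 28 nt with the transcripts of all other annotated genes. Of the 44 genes, 22 had no shared window and 15 shared over 10% of their windows. The counting rule for reads with several matches is not given in the sources used here. Psma3 shared 92.4% of its windows, Psma5 90.4%, Psmb5 86.7% and Psmb3 85.5%. The longest shared run of 3 of these genes is shown by its first 90 bases, in capitals, after 6 bases of the gene before it, since a footprint from inside the run has the same sequence in both genes.
Psmb5, shared with Gm3375 (processed pseudogene, chromosome 7): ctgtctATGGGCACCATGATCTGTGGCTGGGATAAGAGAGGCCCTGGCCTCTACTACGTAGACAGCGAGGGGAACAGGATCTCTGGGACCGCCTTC
Psma5, shared with Gm12989 (processed pseudogene, chromosome 4): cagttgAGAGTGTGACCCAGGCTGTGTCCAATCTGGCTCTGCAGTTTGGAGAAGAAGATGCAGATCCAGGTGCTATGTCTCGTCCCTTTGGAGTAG
Psma3, shared with Gm13835 (processed pseudogene, chromosome 6): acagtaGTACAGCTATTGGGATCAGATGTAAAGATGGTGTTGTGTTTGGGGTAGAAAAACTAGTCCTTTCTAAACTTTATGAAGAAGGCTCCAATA
The whole run is 194 nt in Psmb5 (coding bases 466 to 659, counted from the start codon), 202 nt in Psma5 (329 to 530) and 665 nt in Psma3 (104 to 768). Gm3375 alone holds 72.8% of the windows of Psmb5, Gm12989 72.3% of those of Psma5, and Gm13835 86.1% of those of Psma3.

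The core genes with the most shared sequence had the fewest footprints per codon. RPKM has no common length scale in these tables, so genes were compared by footprint density, the recovered footprints scaled to library size (CPM) for each 100 codons, as the mean of 4 animals. Psma5 had 3.99 ± 1.06, Psma3 8.30 ± 1.68, Psmb5 8.90 ± 2.39 and Psmb3 13.4 ± 2.93 (SD, n = 4 animals each). The 6 core genes that shared at most 10% of their windows lay between 59.8 ± 3.47 (Psmb7) and 138.6 ± 10.1 (Psma6), a range of 2.32-fold, against 34.8-fold over all 14 core genes. The median over those 6 genes was 80.1 and 71.8 in the knockouts and 79.3 and 78.9 in the wild types. Over the other 8 core genes it was 19.6 and 18.8 in the knockouts and 21.3 and 19.3 in the wild types. Over the 14 core genes footprint density had a Spearman rho of -0.82 with the shared percentage, and over the 31 core and 19S genes of -0.61. These are descriptions over genes that share the same libraries. Psmb1, with 24.9% shared windows and a density of 95.7, departs from that order. Recovered total RNA reads were low in these genes as well. Psma5 had 340 and 429 in the knockouts and 252 and 329 in the wild types. Psmb3 had 398 and 343 against 223 and 311, and Psma3 had 760 and 1104 against 510 and 559. Of the 6 genes that share little, Psmb2 had the fewest, 1133 and 1496 against 681 and 932. Psmb4 had the most, 5522 and 6273 against 3730 and 4597. Density in total RNA was not computed.

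**Figure D2:**
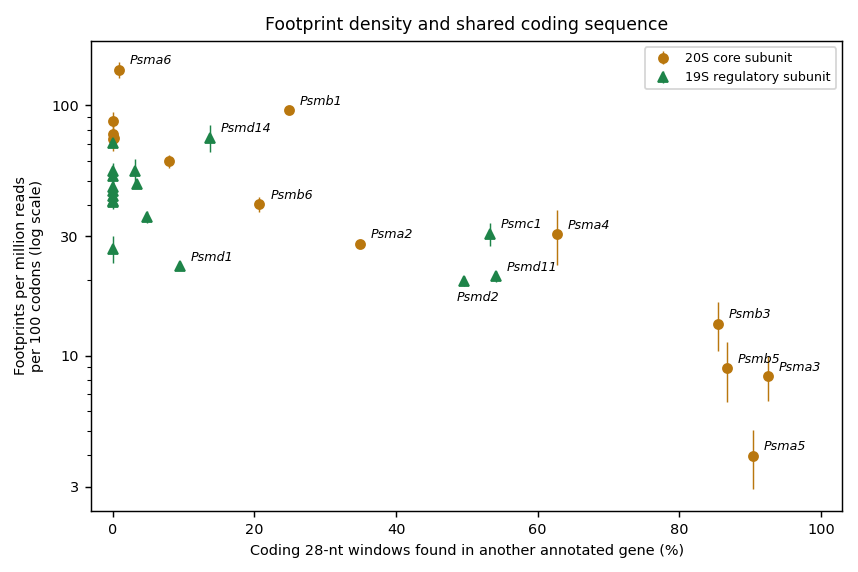
Footprint density in CPM for each 100 codons (log scale, mean and SD of 4 animals) against the percentage of 28-nt coding windows found in another annotated gene, for core subunits (circles) and 19S subunits (triangles). Psma5, Psma3, Psmb5 and Psmb3 lie apart at the lower right, with over 85% of windows shared and densities of 3.99 to 13.4.

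The 19S genes covered 19.8 ± 0.909 (Psmd2) to 74.2 ± 9.20 (Psmd14), a range of 3.74-fold, and shared less. Their medians were 43.0 and 41.1 in the knockouts and 45.7 and 41.2 in the wild types. Psmd2 shared 49.6% of its windows, Psmd11 54.1% and Psmc1 53.2%. The 19S chaperones had densities of 10.5 to 20.5, the core chaperones of 6.73 to 11.7 and Psmb10 of 6.26 ± 0.913. The core chaperones and Psmb10 lay below every 19S subunit, and of the 19S chaperones only Psmd5 (20.5 ± 1.57) exceeded Psmd2. The densities of both groups of chaperones and of Psmb10 overlap those of the core genes that share the most sequence. Among the chaperones and Psmb10 only Psmg3 shares windows, with an overlapping gene. The nuclear activator Psme3 reached 37.8 ± 3.43, and Psme4 had 3.61 ± 0.348 with no shared window. Psme2 had the lowest density of all 44 genes, 2.21 ± 0.746, and shared 80.7% of its windows, nearly all with Psme2b. TE, a ratio of both kinds of library, had a rho of 0.016 with the shared percentage over the 44 genes. Among core genes the median TE was nonetheless 2.86 and 2.50 in the knockouts and 2.51 and 2.44 in the wild types for the 6 genes that share little, against 1.94 and 1.85 in the knockouts and 1.81 and 1.52 in the wild types for the other 8. With only genes that share at most 10%, an alternative chosen after seeing the data, core minus 19S was 0.40 ± 0.050 (SD, n = 4 animals; 6 against 13 genes), or 1.32-fold. The part of shared sequence in these values was not tested.

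Between genotypes few differences of proteasome genes passed the test. In total RNA 1 of the 44 genes was called between genotypes, Psmb5, which fell in the knockout (1.61% of all 12690 genes were called lower), and 0 were called higher (2.48% of all genes; 4.09% were called in either direction). Psmb5 (ENSMUSG00000022193; chromosome 14, 54614119 to 54618022) had total RNA of 25.5 and 23.9 RPKM in the knockouts, against 38.7 and 36.5 RPKM in the wild types. Both knockouts lay below both wild types, with 0.657 times the wild-type mean. The log2 fold change of knockout over wild type was -0.59 (SE 0.096, limma adjusted p = 0.0320). The recovered reads behind these values numbered 318 and 331 in the knockouts and 325 and 327 in the wild types, near-equal counts out of deeper knockout libraries. Psmb5 footprints were 63.3 and 74.9 RPKM in the knockouts, against 110.7 and 68.5 RPKM in the wild types. Here wild type 2 stood alone above the other 3 animals and the genotypes overlap (log2 fold change -0.34, SE 0.249, limma adjusted p = 0.776). The Psmb5 call in total RNA was lost without knockout 1 (limma adjusted p = 0.151), without knockout 3 (0.147) and without wild type 2 (0.0778), and held without wild type 3 (0.0455). It is also 1 of the 4 core genes that share over 85% of their windows with another gene, and the other 3 were not called.

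Psmb10 had the next smallest p in total RNA. Psmb10 had 31.7 and 32.5 RPKM in the knockouts, against 41.6 and 44.2 RPKM in the wild types (log2 fold change -0.41, SE 0.091, limma adjusted p = 0.0704). The groups do not overlap, and the gene has no shared window. It passed in limma with the filter at a mean read count of 100 (adjusted p = 0.0493) and with limma-voom on recovered reads (adjusted p = 0.0335). In limma it did not pass with no filter (adjusted p = 0.134), no variance trend (0.0948) or all libraries in 1 fit (0.227). Another pseudocount (limma adjusted p = 0.0722) and quantile normalization (0.0695) also left it uncalled. Its recovered reads numbered 664 and 756 in the knockouts and 587 and 666 in the wild types, higher counts out of deeper knockout libraries. Psma2 had 14.0 and 14.7 RPKM in the knockouts, against 16.8 and 18.2 RPKM in the wild types (log2 fold change -0.27, SE 0.101, limma adjusted p = 0.196; limma-voom adjusted p = 0.0387). With limma-voom 3 of the 44 proteasome genes were called lower, Psmb5, Psmb10 and Psma2, and 0 higher. Of all 12390 genes tested in that way, 838 were called lower and 784 higher, 13.1% in either direction. Psma4, with 24.2 and 28.1 RPKM in the knockouts against 36.8 and 31.5 RPKM in the wild types, was not called by either (limma log2 fold change -0.37, SE 0.123, adjusted p = 0.159).

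**Figure D3:**
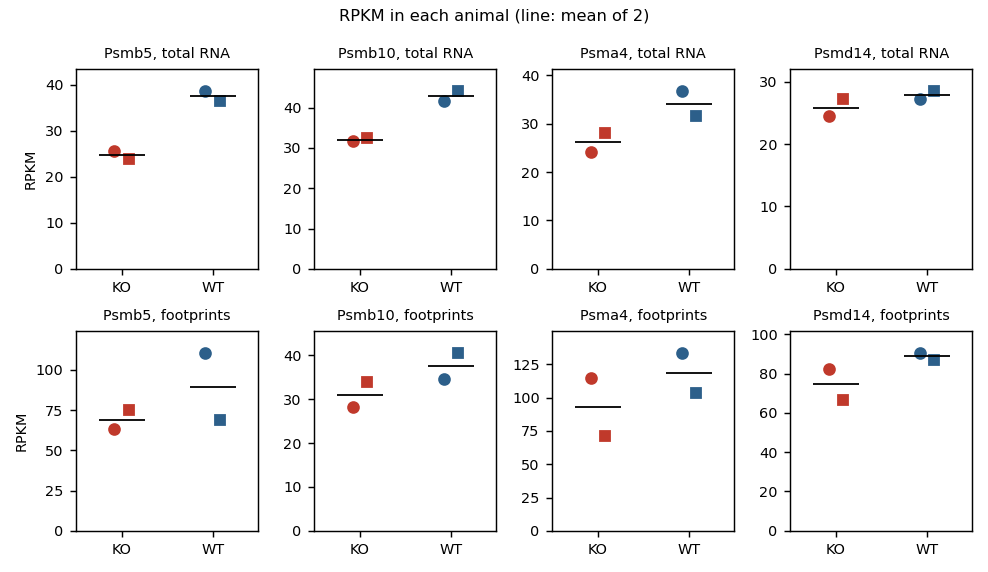
Total RNA (upper panels) and footprints (lower panels) of Psmb5, Psmb10, Psma4 and Psmd14 in RPKM, with 1 point for each animal (circles for knockout 1 and wild type 2, squares for knockout 3 and wild type 3) and a line at the mean of 2. In total RNA the knockouts of Psmb5, Psmb10 and Psma4 lie below the wild types, and in footprints of Psmb5 and Psma4 the genotypes overlap.

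Most log2 fold changes in total RNA were small and below 0. They lay below 0 for 33 of the 44 genes, with a median of -0.095, where 53.3% of all genes lay below 0 and their median was -0.017. Both knockouts lay below both wild types in 17 of the 44 genes (38.6%), against 30.3% of all genes, and above both in 4 (9.09%), against 24.7% of all genes. Those 4 were Psmd11, Psme1, Psme3 and Psmf1, of which none was called. By role, 12 of 14 core genes lay below 0 (median -0.15), as did 6 of 6 ATPases (-0.14), 9 of 11 non-ATPase subunits (-0.085), 3 of 4 core chaperones (-0.065) and 1 of 3 19S chaperones (0.020). Of the activators and the inhibitor 1 of 5, Psme4, lay below 0 (median 0.057). An unadjusted limma p under 0.05 was found for 8 of the 44 genes, 7 of them lower, against 22.1% of all genes. The median deviation of the 44 genes from their mean over total RNA libraries was -0.091 and -0.0090 log2 units in the knockouts and 0.021 and 0.083 in the wild types, so that knockout 1 and wild type 3 were the farthest apart and knockout 3 and wild type 2 lay close together.

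In footprints and in TE no proteasome gene was called between genotypes. In footprints 0 of 44 passed in limma (0.233% of all 12447 genes did, 0.129% higher and 0.104% lower), 0 had an unadjusted p under 0.05 (10.4% of all genes did) and 0 passed with limma-voom (1.62% of all genes did). The median log2 fold change was -0.043 over the 44 genes and -0.028 over all genes. Psmd14 had the smallest p: its footprints were 82.5 and 66.8 RPKM in the knockouts, against 90.6 and 86.8 RPKM in the wild types (log2 fold change -0.25, SE 0.150, limma adjusted p = 0.678). Its total RNA was 24.5 and 27.2 RPKM in the knockouts, against 27.3 and 28.6 RPKM in the wild types. Psmb10 followed with footprints of 28.3 and 33.9 RPKM in the knockouts, against 34.6 and 40.6 RPKM in the wild types (log2 fold change -0.27, SE 0.164, limma adjusted p = 0.694). Both knockouts of both genes lay below both wild types. Over the whole set this held for 11 genes (25.0%), against 22.6% of all genes, and the reverse for 1 (2.27%), Psmc5, against 17.1% of all genes.

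For TE, tested as the interaction of genotype with kind of library, 0 of 44 passed in limma (0.0165% of all 12089 genes did), 0 had an unadjusted p under 0.05 (4.55% of all genes did) and 0 passed with limma-voom (0.00835% of all genes did). The median log2 difference between genotypes was 0.040 over the 44 genes and -0.018 over all genes. Of the 44 genes 30 lay above 0, while 53.4% of all genes lay below 0. Without knockout 1, 22 of the 44 lay above 0, and without wild type 3, 20 did. Psmf1 had the smallest p, with a difference in TE of -0.41 (SE 0.194, limma adjusted p = 0.997), on footprints of 18.4 and 18.2 RPKM in the knockouts, against 18.1 and 20.8 in the wild types, and total RNA of 11.3 and 9.59 RPKM in the knockouts, against 8.73 and 7.47 in the wild types. Psmg4 came next at 0.48 (SE 0.282, limma adjusted p = 0.997), on footprints of 14.9 and 10.9 RPKM in the knockouts, against 11.8 and 8.75 in the wild types, and total RNA of 5.41 and 6.79 RPKM in the knockouts, against 7.20 and 6.78 in the wild types. Its difference came from knockout 1. Both knockouts lay above both wild types in 6 genes (13.6%), Psma1, Psma2, Psma5, Psmb1, Psmc5 and Psmd8, against 14.3% of all genes, and below them in 3 (6.82%), Psmd11, Psmf1 and Psmg1, against 17.5% of all genes. By role the median was 0.16 over the core (10 of 14 genes above 0) and 0.039 over the 19S particle (13 of 17 above 0). The margin of core over 19S, 0.17 and 0.30 in the knockouts and 0.22 and 0.24 in the wild types, differed between genotypes by 0.00057 log2 units, and the genotypes overlap. With the mean over subunits in place of the median the margin was 0.21 and 0.26 in the knockouts and 0.19 and 0.062 in the wild types, a difference of 0.11 with no overlap. An exact permutation test of 2 against 2 animals cannot go below 0.333 (two-sided).

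**Figure D4:**
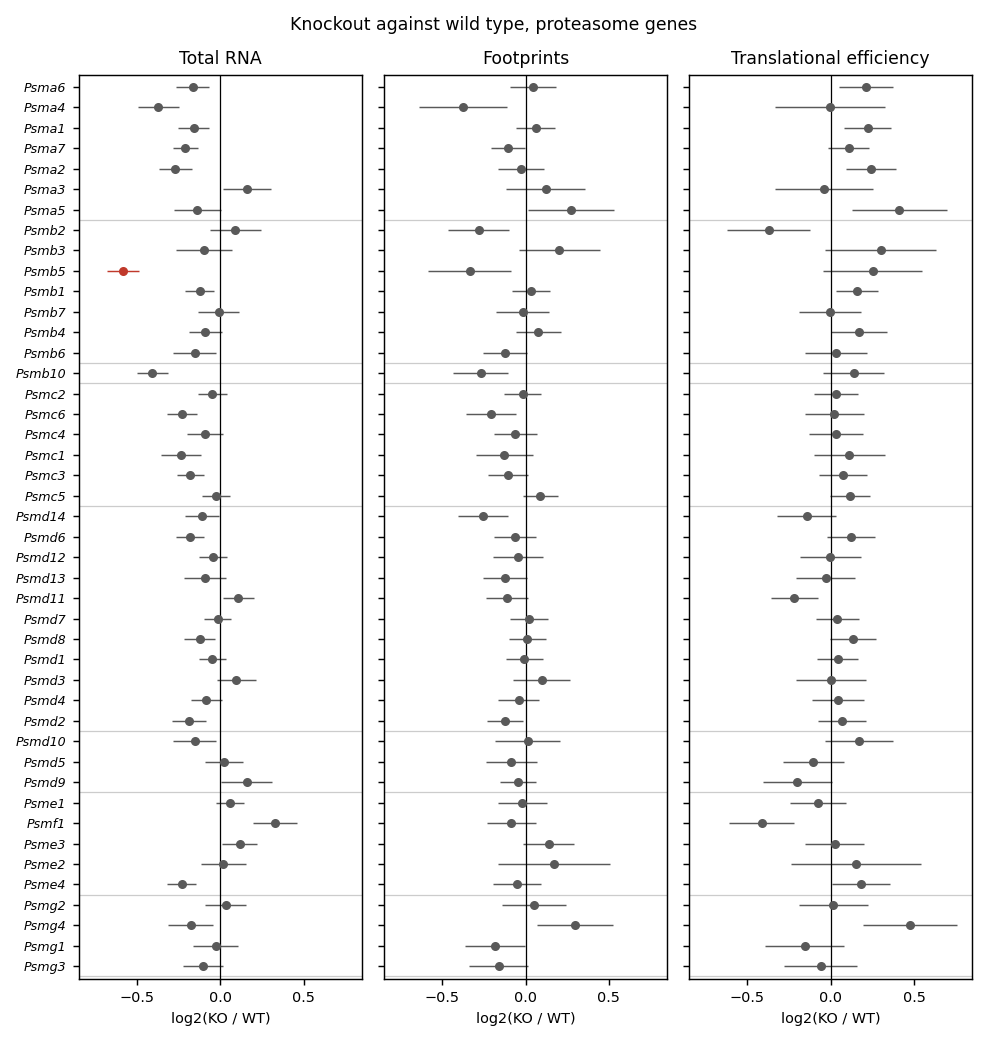
Log2 fold change of knockout over wild type, with its SE from limma, for the 44 proteasome genes by role in total RNA, footprints and translational efficiency. The 1 called gene, Psmb5 in total RNA, is red at -0.59, most total RNA values lie slightly left of 0, and no value in footprints or efficiency was called.

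Lists of genes around the proteasome gave few calls as well. In lists of 14 proteasome partners, 6 genes of NRF1 control, 6 ubiquitin and E1 genes, 10 of the segregase p97 and its cofactors, 9 of the COP9 signalosome, a complex related to the lid, and 7 of the CCT chaperonin, limma called 0 genes between genotypes in total RNA, footprints or TE. At an unadjusted p under 0.05 were 7 of 52 genes in total RNA (22.1% of all genes), 1 of 51 in footprints (10.4% of all genes) and 1 of 51 in TE (4.55% of all genes). Limma-voom called 2 in total RNA (13.1% of all genes) and 0 in footprints or TE. The 2 were Usp14, a deubiquitinase of the 19S particle, with 28.9 and 35.2 RPKM in the knockouts against 43.3 and 36.9 RPKM in the wild types (limma-voom adjusted p = 0.0346), and Rad23b, which carries ubiquitylated proteins to the proteasome, with 49.2 and 55.1 RPKM in the knockouts against 60.2 and 64.2 RPKM in the wild types (limma-voom adjusted p = 0.0383). Nfe2l1 had 26.2 and 25.4 RPKM of total RNA in the knockouts, against 24.7 and 25.9 RPKM in the wild types (log2 fold change 0.031, SE 0.093, limma adjusted p = 0.881), and a TE of 0.534 and 0.587 in the knockouts and 0.630 and 0.545 in the wild types.

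Other ubiquitous complexes also had more footprints than their total RNA level. Of all 12089 genes tested, 33.8% were called higher in footprints and 39.5% lower. The COP9 signalosome had a median TE of 2.03 and 2.16 in the knockouts and 2.12 and 2.10 in the wild types, with 7 of 9 genes called higher in footprints than in total RNA: Cops2, Cops3, Cops4, Cops5, Cops6, Cops7a and Cops8. CCT, which folds cytosolic proteins, had 2.78 and 2.44 in the knockouts and 2.43 and 2.31 in the wild types, with 7 of 7 called higher: Tcp1, Cct2, Cct3, Cct4, Cct5, Cct7 and Cct8. The proteasome partners had 1.76 and 1.75 in the knockouts and 1.89 and 1.63 in the wild types, with 11 of 14 called higher (among them Adrm1, Sem1, Uchl5, Usp14, Pomp, Ubqln1, Ubqln2, Txnl1 and Akirin2) and 3 called lower (Ube3c, Ecpas and Ubqln4). Pomp, which guides core assembly, had 1.58 and 1.35 in the knockouts and 1.42 and 1.25 in the wild types. Of the 10 p97 genes, 5 were called higher (Vcp, Ufd1, Faf1, Ubxn1 and Ubxn4) and 3 lower (Nploc4, Ubxn6 and Ubxn7), and their median was 1.14 and 1.31 in the knockouts and 1.28 and 1.11 in the wild types. Of the 6 transcription factors and processing enzymes of NRF1 control, 1 was called higher (Nfe2l2) and 4 lower (Nfe2l1, Ddi2, Mafg and Mafk). Uba1, Uba6 and Ubb were called higher of the 5 ubiquitin and E1 genes tested. No difference between these lists and the subunit genes was tested.

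Sequences before the start of the genes were searched for the motifs of BMAL1 and of NRF1, since the study removed Bmal1 and Psmb5 was the called gene. The E-box CACGTG, which BMAL1 binds with CLOCK, was in the window from 250 bases before to 50 bases after the start of 4 of the 37 genes with a RefSeq promoter (10.8%), against 9.20% of 16497 genes. The antioxidant response element core TGACNNNGC, to which NRF1 and its relatives bind, was in 6 of 37 (16.2%), against 15.0% of genes. Both strands were searched, and neither motif can lie within the other. Psmb5, Psmb6, Psmc6, Psmd12, Psmd9 and Psme4 held the element, and Psma4, Psmb10, Psmd9 and Psme3 the E-box. The promoters of the 3 genes with the lowest log2 fold change in total RNA are shown 5′ to 3′ on the strand of the gene (RefSeq, build GRCm38.p6), with the match in capitals.
Psmb5, chr14:54617946-54618245, minus strand, element 47 bases before the start: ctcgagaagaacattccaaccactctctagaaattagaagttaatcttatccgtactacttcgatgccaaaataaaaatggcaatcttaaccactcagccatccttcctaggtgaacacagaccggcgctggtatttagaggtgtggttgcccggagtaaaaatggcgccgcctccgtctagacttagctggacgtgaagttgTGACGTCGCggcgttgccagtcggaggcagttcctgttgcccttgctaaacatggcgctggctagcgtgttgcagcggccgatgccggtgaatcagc
Psmb10, chr8:105938343-105938642, minus strand, E-box 116 bases before the start: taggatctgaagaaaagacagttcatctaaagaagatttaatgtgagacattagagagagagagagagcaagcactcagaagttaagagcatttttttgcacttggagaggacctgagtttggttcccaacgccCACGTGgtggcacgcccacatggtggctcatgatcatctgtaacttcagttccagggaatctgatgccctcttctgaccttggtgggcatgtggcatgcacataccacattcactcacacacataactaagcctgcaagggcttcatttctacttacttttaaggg
Psma4, chr9:54950609-54950908, plus strand, E-box 140 bases before the start: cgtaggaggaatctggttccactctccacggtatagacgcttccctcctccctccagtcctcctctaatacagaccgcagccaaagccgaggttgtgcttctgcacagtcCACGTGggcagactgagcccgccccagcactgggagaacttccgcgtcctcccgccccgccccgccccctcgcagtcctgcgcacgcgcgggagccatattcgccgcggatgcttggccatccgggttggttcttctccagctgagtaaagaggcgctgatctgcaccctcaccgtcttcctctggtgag
A match is a run of letters and was not tested for binding. Psme3 and Psmd9, which also hold an E-box, had log2 fold changes in total RNA above 0 (0.12 and 0.16), while Psma4 and Psmb10 were below 0.

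Markers of several cell types differed between the genotypes. In total RNA limma called 2.48% of all 12690 genes higher in the knockouts and 1.61% lower. Summed markers of granule neurons stood at 8201 and 8046 CPM in knockout total RNA against 6190 and 6866 in wild-type total RNA, with 3 of 10 called higher (Grin2c, Fat2 and Tiam1). Choroid plexus markers stood at 1859 and 2195 in the knockouts against 873.1 and 66.95 in the wild types, with 2 of 7 tested called higher (Sostdc1 and Prlr). Microglial markers stood at 161.0 and 169.6 in the knockouts against 223.0 and 228.9 in the wild types, with 2 of 9 called lower (C1qb and Ctss). Oligodendrocyte markers stood at 3925 and 3763 in the knockouts against 5937 and 4348 in the wild types, with 1 of 8 called lower (Mag). Of 8 astrocyte and Bergmann glia markers 1 was called lower (S100b), of 5 endothelial markers tested 1 higher (Cldn5), and of 8 Purkinje cell, 5 blood and 4 brainstem markers tested none. Brainstem markers were near 0, with 1 of 9 above 0 in all libraries and 1 at 0 in all. In bulk tissue fewer cells of a type and less RNA per cell cannot be told apart, and the part of these shifts in the values of proteasome genes was not tested. Psmb10, which immune cells express, was not called. Like the summed microglial markers it had lower total RNA values in both knockouts, as did 30.3% of all genes.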

How the data were processed

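Total RNA and ribosome footprints of cerebellum were measured in knockout and wild-type mice. The submitters' processing notes name Bowtie, STAR, Cufflinks and build mm10, with no versions or settings. The authors deposited RPKM values per gene and library, per the file headers, a table of translational efficiency as a ratio, and a mean read count per gene. The ratio equalled footprint over total RNA RPKM within 2% in 100% of 47788 values above 1 RPKM. Whole reads were recovered for 13880 genes from the steps of low RPKM and the mean read count: 99.92% of 3739 values fell within 0.1 of a whole number when that column was read as a geometric mean, against 20.41% for an arithmetic mean. The reads behind 1 RPKM had no rank correlation with coding length (rho 0.0015 over 13862 genes), so differences and ratios of RPKM were taken only within a gene. The filter, the pseudocount and the variance trend below nonetheless use RPKM as deposited, without a common scale between genes.

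Genotypes were compared by limma (3.58.1; R 4.3.3) after a log2 transform of RPKM + 1. The fit used a variance trend and every gene whose mean reached 1 RPKM, with Benjamini-Hochberg adjustment over all of them and a threshold of 0.05. Fold changes are on that scale, which understates changes of genes with low RPKM, also where reads are many. Psmd10, with a mean read count of 629.9, had a log2 fold change in total RNA of -0.15 in limma and -0.25 in limma-voom. For TE the test was the interaction term between genotype and library kind over 8 libraries, and footprints against total RNA with the animal as a block. The same number marks footprints and total RNA from the same lysate, per the labels, and so pairs them. Of the 10 libraries of the study 8 have a column, and the tests were limited to these. The scripts were tested on simulated data. Windows of 28 nt came from GENCODE M21 transcripts. Figures and tables were made with Python 3.11.15, numpy 2.4.6, pandas 2.3.3 and matplotlib 3.10.9. Alternatives were another pseudocount, other filters on low values, quantile normalization, no variance trend, limma-voom on recovered reads, all libraries in 1 fit, each animal left out, the animal as a block, other definitions of the core and 19S sets and, chosen after seeing the data, only genes with at most 10% of windows shared.

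Members, roles and lists were chosen with earlier results of these data known. Values by animal are given for all members as TE, and in RPKM for members called between genotypes, the pair with the smallest p in each comparison, the highest and lowest TE of core and 19S subunits, the proteolytic subunits, Psmd14 and the members next to the read count limit. Psma6, Psma4, Psma2 and Psme4 were added after their values were seen. Of other lists, called genes and Nfe2l1 are named, except 1 that is not reported here.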

Additional observations from a re-analysis of the deposited data

How the results depend on the processing

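With no filter on low values the number of proteasome genes called between genotypes in total RNA was 0, against 1 as reported. With a filter at a mean read count of 100 it was 2, with limma-voom 3 and with all libraries in 1 fit 0. Among only the genes that share at most 10% of windows it was 0, which says nothing of the call, since that set leaves out Psmb5. Leaving out 1 animal gave 0 to 1: Psmb5 was lost without knockout 1, knockout 3 or wild type 2. With no filter its limma adjusted p was 0.102, and in 1 fit of all libraries 0.282. The cause was not tested. Over all genes, calls in total RNA ranged from 26 with no filter to 1622 with limma-voom, against 519, those in footprints from 1 to 315, against 29, and those in TE from 0 to 5, against 2. No proteasome gene was called in footprints or TE under any alternative run. With the animal as a replicate block 0 proteasome genes and 1 of all genes were called in TE, and in footprints against total RNA the 37 higher and 1 lower calls had the same counts without the block and with a pseudocount of 0.1.

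The median TE difference between genotypes over the 44 genes ranged from -0.017 without wild type 3 to 0.12 without knockout 3, against 0.040. The margin of core over 19S was above 0 in every alternative, from 0.18 (mean over subunits) to 0.40 (genes that share at most 10% of windows), and from 0.21 to 0.25 with 1 animal left out. Its difference between genotypes, 0.00057, was 0.11 with the mean over subunits, changed sign with all Psma and Psmb against all Psmc and Psmd genes (-0.014) and with genes whose mean read count reached 1000 (-0.039), and ranged from -0.064 to 0.065 with 1 animal left out. Read depth limits the precision of the genes with the lowest mean read counts, from 170.5 in Psme2 to 324.5 in Psma5.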
